A study of Homo sapiens with 4 samples.

Results

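The 10 genes described here, 4 ligands and 6 receptors of the tumour necrosis factor (TNF) superfamily, were followed in MOLM-13 cells in which GADD45G was overexpressed. They were chosen by symbol, and all 10 were found among the 57820 Ensembl gene IDs of the complete files. The ligands were TNF, TNFSF9, TNFSF10 and TNFSF13B, and the receptors were TNFRSF1A, TNFRSF1B, TNFRSF10A, TNFRSF10B, FAS and TNFRSF12A. MOLM-13 is an established human acute myeloid leukaemia line. The untreated control group (2 libraries) received no treatment, and the GADD45g induced group (2 libraries) received 1 mg/ml doxycycline, as labelled, for 4 days. The labels do not say whether the untreated cells carried the inducible construct, which promoter drove it or whether the line was 1 clone. Doxycycline and the overexpressed gene differed together between the groups, so their effects cannot be told apart. The design text calls the replicates biological. The table of GADD45g induced 1 breaks off after 27332 IDs, and TNF is not among them. The members' Ensembl IDs were ENSG00000232810.3 (TNF, chromosome 6), ENSG00000125657.3 (TNFSF9, chromosome 19), ENSG00000102524.7 (TNFSF13B, chromosome 13), ENSG00000121858.6 (TNFSF10, chromosome 3), ENSG00000067182.3 (TNFRSF1A, chromosome 12), ENSG00000028137.12 (TNFRSF1B, chromosome 1), ENSG00000120889.8 (TNFRSF10B, chromosome 8), ENSG00000104689.5 (TNFRSF10A, chromosome 8), ENSG00000026103.15 (FAS, chromosome 10) and ENSG00000006327.9 (TNFRSF12A, chromosome 16).

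Ligands of the TNF superfamily are mostly trimeric membrane proteins that can be shed, and they act by clustering receptors on the same or a neighbouring cell. One class of receptor carries an intracellular death domain, which recruits FADD or TRADD and through them caspase-8 or the kinase RIPK1. The other class binds TRAF adaptors directly and signals mainly to NF-kB and MAP kinases. Myeloid cells are a main source of TNF and of TNFSF13B, the B cell survival factor BAFF.

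Levels are RPKM, reads scaled to the length of the gene and the depth of the library, so that genes and libraries can be set side by side. The depths recovered from the values were 15683931 to 18895470 reads, and 1 read per 1 kb of gene length gave 0.0529 to 0.0638 RPKM. The induced gene itself, GADD45G, stood at 10.5 and 0.289 RPKM in untreated controls 1 and 2 and at 3236 and 2118 RPKM in GADD45g induced 1 and 2. Fixed markers of the line numbered 10. The leukocyte gene PTPRC, the myeloid antigen CD33 and the myeloid factor SPI1 lay between 12.5 and 101 RPKM in every library. MPO, myeloperoxidase, was at 0.162 to 0.278 RPKM and the macrophage gene CD68 at 0.0727 to 0.172 RPKM. Of the 6 tested, 2 were called. LYZ had control values of 1173 and 868 RPKM and was lower after induction, at 268 and 242 RPKM (limma adjusted p = 0.000326). ITGAM was higher, 21.2 and 17.6 RPKM against 8.89 and 12.9 RPKM (limma adjusted p = 0.0268). Untested FLT3 stood lower, 0.0889 and 0.0451 RPKM against 0.958 and 1.19 RPKM. CEBPA, missing from 1 file, had 3.36 and 3.54 RPKM without induction and 0.643 RPKM in GADD45g induced 2. Markers of epithelial cells set the replicate 1 libraries apart. The 7 fixed epithelial markers summed to 41.7 and 40.8 RPKM in untreated control 1 and GADD45g induced 1, and to 0.423 and 0.245 RPKM in untreated control 2 and GADD45g induced 2. Of these markers KRT8, KRT18, KRT19 and EPCAM were at 0 in untreated control 2, no marker was at 0 in every library, and 0 of the 4 tested passed the test. Their part in the results below was not tested, but the induced-to-control ratio within the replicate 2 libraries, where these markers were at or near 0, is given for TNF and for each member that changed.

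The comparison asks which of these genes differ after induction. Genes were tested where all 4 files list them and their mean reached 1 RPKM, which took in 7 of the 10 members: TNFSF10 and TNFRSF10A were below that level and TNF was missing from 1 file. limma compared the groups on log2(RPKM + 1), a scale that understates the changes of low genes. A gene was called at a Benjamini-Hochberg adjusted p under 0.05 over all 10771 tested genes. Of the tested members 4 rose: the ligand TNFSF9 and the receptors TNFRSF1B, TNFRSF12A and TNFRSF10B. The ligand TNFSF13B and the receptor FAS fell. The 6 called members stood against background rates of 12.2% of all tested genes called higher, 26.7% called lower and 38.9% called in either direction. Both induced values lay above both controls for 4 tested members and below both for 2, where the same held for 24.1% and 45.8% of all tested genes, 70% together. The voom fit on the recovered reads, like the main fit, had no added scaling. It called 4 members higher and 2 lower, beside 13.6% and 30% of 10600 genes. Not all alternatives with a test kept these calls: FAS kept its call in 7 of 16, TNFSF13B in 12 of 17 and TNFRSF10B in 13 of 17. The median log2 change was 0.75 over the tested members and -0.21 over all tested genes. In these bulk samples, fewer cells of a type and less RNA per cell cannot be told apart.

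**Figure D1:**
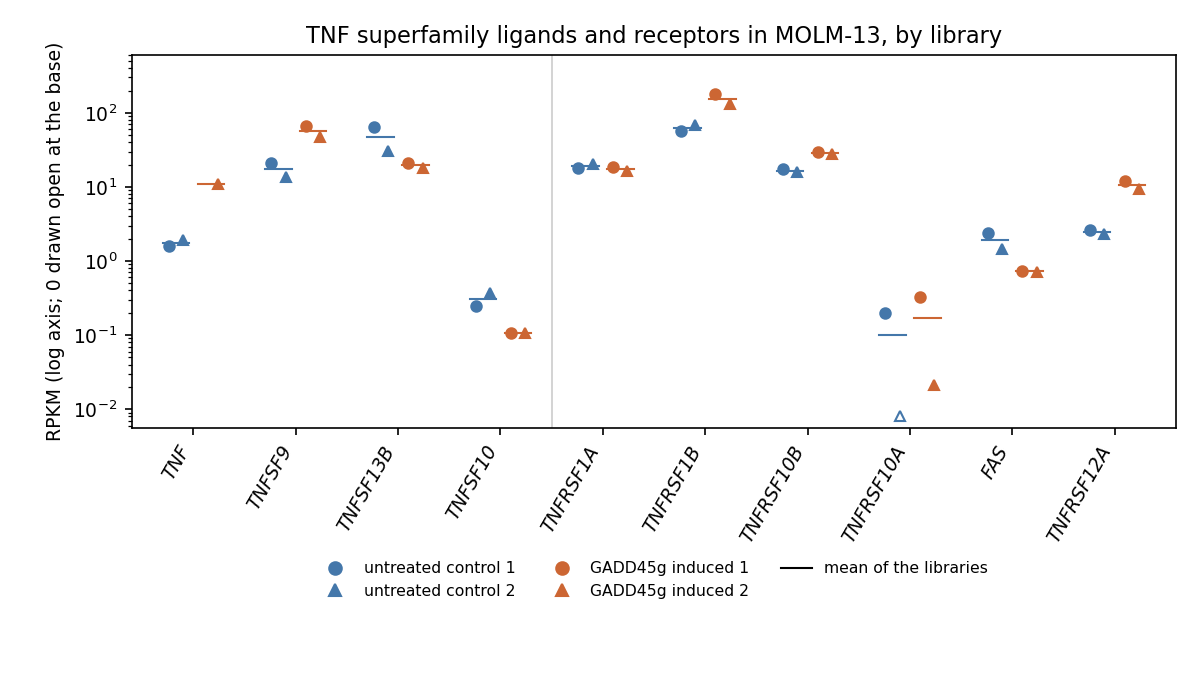
RPKM of the 10 members (log axis) in each library, ligands left of the grey line and receptors right of it; circles are replicate 1, triangles replicate 2, and short lines the mean of a group's libraries (TNF has 1 induced library). TNFSF9, TNFRSF1B, TNFRSF12A and TNFRSF10B lie higher in both induced libraries than in both controls, TNFSF13B and FAS lower, and TNFRSF10A is seen mainly in the replicate 1 libraries.

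TNF, the founding ligand of the family, was at 1.59 and 1.90 RPKM in untreated controls 1 and 2 and at 11.02 RPKM in GADD45g induced 2. These levels came from 50, 50 and 295 reads, and their 95% counting intervals were 1.18 to 2.09, 1.41 to 2.51 and 9.80 to 12.4 RPKM. The induced value was thus 6.32-fold the control mean and lay outside the counting intervals of the controls. Within the replicate 2 libraries the ratio was 5.79. A limma fit that kept the genes missing from 1 file, with 2 controls and 1 induced library for TNF, gave a log2 change of 2.13 ± 0.28 (SE; adjusted p = 0.00703). In that fit 8.18% of 14138 genes were called higher and 17.6% lower. The induced arm was 1 library, assumed to vary as the other libraries and genes do, so that neither the SE nor the p holds a spread between induced libraries. TNF is therefore not counted among the members that rose.

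TNFSF9 encodes 4-1BB ligand, a costimulator of T cells that myeloid cells display. It was at 21.3 and 13.5 RPKM in the controls and at 65.6 and 47.1 RPKM after induction, so that the lower induced library was above the higher control. The group means were 17.4 ± 5.52 and 56.3 ± 13.04 RPKM (SD, n = 2), a 3.24-fold rise (log2 change 1.66 ± 0.28, SE; limma adjusted p = 0.00101). Within the replicate 2 libraries the ratio was 3.499. Its receptor TNFRSF9 was low, at 0.303 and 0.307 RPKM in the controls with 0.741 and 0.713 RPKM in the induced libraries, from 33 to 96 reads. The 95% counting intervals of TNFRSF9 ended at 0.431 RPKM in the controls and began at 0.563 RPKM after induction. It lay under the level for testing.

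TNFSF13B, or BAFF, was the most abundant member in untreated control 1, at 63.8 RPKM, and was at 30.7 RPKM in untreated control 2. After induction it was at 21.2 and 18.3 RPKM. The spread between the controls was wider than that between the induced libraries. The means were 47.3 ± 23.4 and 19.7 ± 2.07 RPKM (SD, n = 2), a 2.39-fold fall (log2 change -1.13 ± 0.32, SE; limma adjusted p = 0.0166). The call was lost in 5 of 17 alternatives with a test, where the largest adjusted p of limma was 0.155. These were the fits without untreated control 1 (log2 change -0.62) and without GADD45g induced 2, with no filter and with missing values kept. The fifth was TMM scaling (adjusted p = 0.0516). Within the replicate 2 libraries the ratio was 0.595, and the log2 difference -0.72. Of the receptors for this ligand, TNFRSF13C, the BAFF receptor, went from 0.978 and 2.55 RPKM without induction to 0.229 and 0.0676 RPKM after induction. These were 68, 148, 16 and 4 reads, under the level for testing as a mean. TNFRSF17 was listed at 0 in the 4 libraries, where 0 reads allow up to 0.142 to 0.171 RPKM for a gene of its length in GENCODE 29. TNFRSF13B was listed at 0 in the 3 files that list it.

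TNFSF10 encodes TRAIL, the ligand of the death receptors TNFRSF10A and TNFRSF10B. It was at 0.245 and 0.367 RPKM in the controls and at 0.107 and 0.108 RPKM after induction, from 16, 20, 7 and 6 reads. Both induced values were below both controls. The counting interval of untreated control 1 (0.140 to 0.398 RPKM) overlapped that of GADD45g induced 1 (0.0429 to 0.220 RPKM), and with no filter on low values limma did not call the gene (adjusted p = 0.118).

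Among the receptors without a death domain, TNFRSF1B and TNFRSF12A rose. TNFRSF1B encodes TNFR2, which binds TNF and recruits TRAF2. It was at 57.6 and 68.8 RPKM in the controls and 177 and 132 RPKM after induction, the highest member in both induced libraries. The means were 63.2 ± 7.93 and 155 ± 31.6 RPKM (SD, n = 2), a 2.45-fold rise (log2 change 1.27 ± 0.26, SE; limma adjusted p = 0.00314). Within the replicate 2 libraries the ratio was 1.92. TNFRSF12A encodes Fn14, a small receptor for the ligand TWEAK that many tissues induce after injury. Its levels were 2.62 and 2.35 RPKM in the controls and 11.999 and 9.25 RPKM after induction, with no overlap. The 4.28-fold rise gave a log2 change of 1.73 ± 0.22 (SE; limma adjusted p = 0.000188), and within the replicate 2 libraries the ratio was 3.94. CLDN6, which overlaps TNFRSF12A on the opposite strand, was at or below 0.184 RPKM in every library. The gene for its ligand, TNFSF12, had 1, 0 and 2 reads in untreated controls 1 and 2 and GADD45g induced 2. TNFSF12 shares its exons with a read-through gene, TNFSF12-TNFSF13, that was at 0 in those 3 files, and the rule by which reads of overlapping genes were assigned is not stated in the labels.

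The windows just upstream of the gene start are shown for TNF and TNFSF9, ligands, and TNFRSF1B, a receptor of TNF, as examples of members with higher induced values for which the RefSeq table (GRCh38.p14) holds a promoter. Of the 10 members, 7 matched that table. Each line gives the 250 bases before the start on the strand of the gene, 5′ to 3′, in lower case, with motif matches in capitals. The motifs searched, on both strands, were as follows: the NF-kB consensus, the AP-1 site TGACTCA, the cyclic AMP response element TGACGTCA and the EGR site GCGGGGGCG.
TNF, chr6:31575315-31575564, + strand: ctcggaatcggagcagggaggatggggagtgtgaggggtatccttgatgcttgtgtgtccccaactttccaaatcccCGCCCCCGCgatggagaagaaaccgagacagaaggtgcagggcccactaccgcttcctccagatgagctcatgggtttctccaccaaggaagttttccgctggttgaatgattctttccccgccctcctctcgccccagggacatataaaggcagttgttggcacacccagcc
TNFSF9, chr19:6530776-6531025, + strand: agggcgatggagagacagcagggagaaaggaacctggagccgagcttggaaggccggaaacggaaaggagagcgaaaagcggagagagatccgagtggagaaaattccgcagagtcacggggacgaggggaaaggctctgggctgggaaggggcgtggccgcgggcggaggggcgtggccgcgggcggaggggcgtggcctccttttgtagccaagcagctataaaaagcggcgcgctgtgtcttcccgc
TNFRSF1B, chr1:12166741-12166990, + strand: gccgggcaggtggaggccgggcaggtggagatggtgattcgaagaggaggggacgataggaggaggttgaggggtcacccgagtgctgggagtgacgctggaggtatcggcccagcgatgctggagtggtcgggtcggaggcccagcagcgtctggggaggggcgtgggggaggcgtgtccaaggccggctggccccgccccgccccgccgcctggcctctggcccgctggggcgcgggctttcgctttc
The 1 match in these 3 windows was the EGR site of the TNF window, on the minus strand, from base -173 to base -165 relative to the start. Among the other 4 members in the table, 1 of the 3 windows of FAS, which fell, held the NF-kB consensus (base -157 to base -148) and the EGR site (base -56 to base -48), while TNFSF10, TNFSF13B and TNFRSF1A held none of the motifs. Windows of 5 further superfamily and adaptor genes were searched. TNFSF14 held the NF-kB consensus and the AP-1 site, TNFSF15 the AP-1 site and TNFRSF14, which fell, the NF-kB consensus, while TNFRSF21 and TRAF1 held none. Of 34796 distinct windows of this length in the table, 4.72% held that EGR site, 9.96% the NF-kB consensus, 4.21% the AP-1 site and 1.64% the cyclic AMP response element. The share of G and C was 57.2% for TNF, 64.4% for TNFSF9 and 72.4% for TNFRSF1B, against a median of 58.0% over the table. A match describes letters and not a bound site.

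The 4 death receptors among the members are taken in turn, and their changes were not tested against each other. TNFRSF1A encodes TNFR1, the death domain receptor for TNF, and stood at 17.8 and 20.2 RPKM in the controls and 18.6 and 16.2 RPKM after induction. The groups overlapped, and the log2 change of -0.12 ± 0.23 (SE) did not pass (limma adjusted p = 0.711). Under the 4 scaling alternatives the change was 0.05 to 0.14, of the opposite sign. The ratio of TNFRSF1B to TNFRSF1A, the receptors of TNF, does not depend on the scaling of a library. It was 3.25 and 3.42 in the controls and 9.54 and 8.16 after induction.

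TNFRSF10B encodes DR5, a death receptor for TRAIL that p53 and the integrated stress response can induce. It was at 17.3 and 15.9 RPKM in the controls and 29.4 and 27.6 RPKM after induction, with close replicates in both groups. The 1.72-fold rise (log2 change 0.75 ± 0.22, SE) passed the test with 4 libraries (limma adjusted p = 0.0219). It was lost when any 1 library was left out: the adjusted p was 0.0504 without untreated control 1, 0.0699 without untreated control 2, 0.117 without GADD45g induced 1 and 0.0834 without GADD45g induced 2, at log2 changes of 0.69 to 0.80. Within the replicate 2 libraries the ratio was 1.74. TNFRSF10B overlaps RHOBTB2 on the opposite strand, which was at 6.15 and 8.19 RPKM in the controls and lower, at 4.32 and 4.36 RPKM, in the induced libraries.

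TNFRSF10A encodes DR4, the other TRAIL death receptor. It was at 0.198 RPKM in untreated control 1 and 0.323 RPKM in GADD45g induced 1 (11 and 18 reads), and at 0 and 0.0212 RPKM in untreated control 2 and GADD45g induced 2 (0 and 1 reads). A count of 0 reads allows up to 0.0648 RPKM in untreated control 2. The gene thus followed the replicate number, as the epithelial markers did. Within each replicate number the induced value was the higher, by few reads, and a change with treatment was not tested. Whether the epithelial signal bears on TNFRSF10A was not tested. It overlaps an antisense gene, TNFRSF10A-AS1, that was at 0.502 RPKM in untreated control 1 and at 0 in untreated control 2 and GADD45g induced 2.

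FAS, the death receptor CD95, was at 2.41 and 1.43 RPKM in the controls and at 0.743 and 0.703 RPKM after induction. These were 161, 80, 50 and 40 reads, and both induced values were below both controls. The 2.65-fold fall gave a log2 change of -0.74 ± 0.24 (SE; limma adjusted p = 0.0311). FAS passed the filter through its level in the controls, since its induced mean was 0.723 RPKM. The call was lost in 9 of 16 alternatives with a test. These were each of the 4 scaling alternatives (adjusted p = 0.0519 to 0.124), no filter, missing values kept, and the fits without untreated control 1, GADD45g induced 1 or GADD45g induced 2. With 1 library left out the log2 change ranged from -0.98 to -0.50. Within the replicate 2 libraries the ratio was 0.491. FAS overlaps ACTA2 on the opposite strand, which was at 1.00 and 1.33 RPKM in the controls and 0.542 and 0.372 RPKM after induction. The labels do not state the strand of the libraries, so reads of the overlap cannot be told apart. Fas ligand, FASLG, had 0, 0, 2 and 1 reads.

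**Figure D2:**
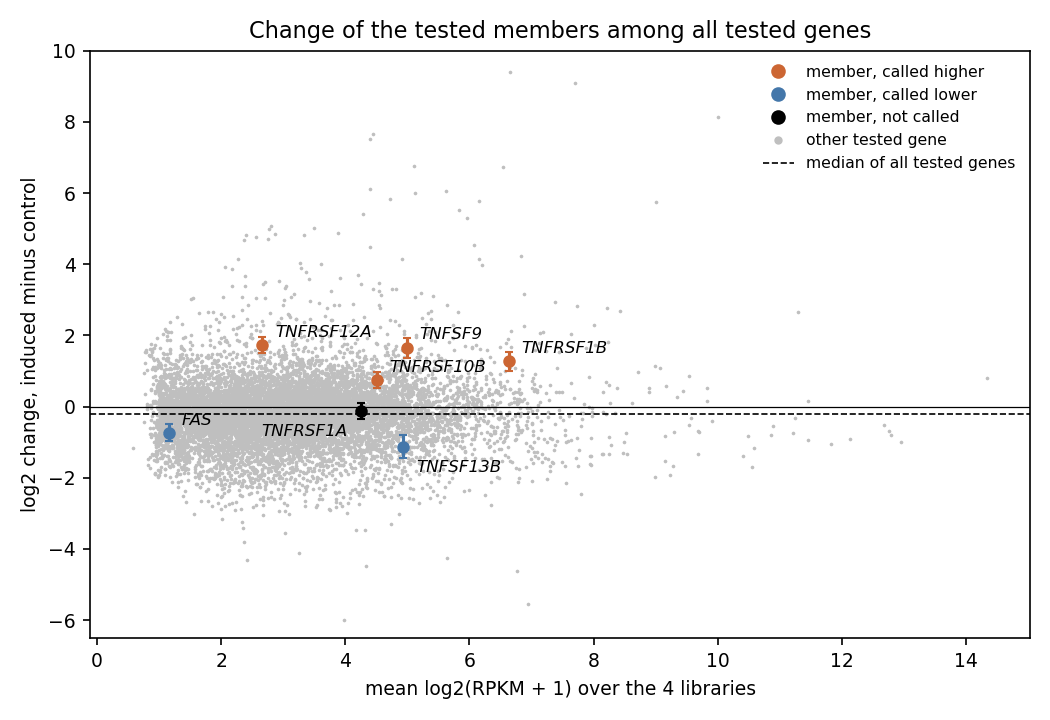
log2 change (induced minus control, on log2(RPKM + 1)) against mean log2(RPKM + 1) for all 10771 tested genes (grey), with the 7 tested members in colour and bars of 1 SE. TNFRSF12A (1.73) and TNFSF9 (1.66) lie above most genes of like level, and TNFRSF1A (-0.12) lies near the dashed line, the median of all tested genes at -0.21.

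In order of level, TNFRSF1B and TNFSF13B led the controls, at 63.2 ± 7.93 and 47.3 ± 23.4 RPKM (SD, n = 2), a difference within their spread. TNFRSF1A (18.95 ± 1.70), TNFSF9 (17.4 ± 5.52) and TNFRSF10B (16.6 ± 0.98) followed, with means not separated beyond their spread between libraries. TNFRSF1A was above TNFRSF10B within each control, while the place of TNFSF9 differed between the controls. TNFRSF12A, FAS and TNF lay between 1.43 and 2.62 RPKM, and TNFSF10 and TNFRSF10A below 0.4 RPKM. After induction TNFRSF1B led at 155 ± 31.6 RPKM, followed by TNFSF9 at 56.3 ± 13.04 and TNFRSF10B at 28.5 ± 1.23 RPKM. The means of TNFSF13B (19.7 ± 2.07) and TNFRSF1A (17.4 ± 1.65) did not differ beyond their spread between libraries. Nor did TNF in its 1 library (11.02 RPKM) and TNFRSF12A (10.6 ± 1.94). Within a library TNFSF13B was above TNFRSF1A, at 21.2 against 18.6 RPKM in GADD45g induced 1 and 18.3 against 16.2 RPKM in GADD45g induced 2. In GADD45g induced 2 TNFRSF12A was at 9.25 RPKM, below TNF.

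The rest of the superfamily was followed as 14 other ligands and 23 other receptors. Of 4 tested ligands 2 rose and 0 fell, with a median log2 change of 0.83. TNFSF14 encodes LIGHT, a ligand of HVEM and of the lymphotoxin beta receptor, and went from 2.89 and 4.65 RPKM without induction to 15.5 and 15.7 RPKM after induction (log2 change 1.83 ± 0.24, SE; limma adjusted p = 0.000216). TNFSF15, or TL1A, went from 0.263 and 0.0727 RPKM to 1.83 and 2.13 RPKM (limma adjusted p = 0.00092), and passed the filter through its induced level. TNFSF9, CD70 and TNFSF14 are consecutive protein-coding genes on chromosome 19 in the RefSeq annotation. CD70, between the 2 genes that rose, was at 17.7 and 15.6 RPKM in the controls and 16.6 and 11.7 RPKM after induction, with overlapping groups (limma adjusted p = 0.46).

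TNF itself lies between LTA and LTB on chromosome 6 in the same annotation, and GADD45g induced 1 lists none of these. LTB, lymphotoxin beta, was at 1.77 and 1.83 RPKM in the controls and 0.571 RPKM in GADD45g induced 2 (51, 44 and 14 reads), a direction opposite to that of TNF. The 3-library fit of LTB did not pass (log2 change -0.83 ± 0.33, SE; limma adjusted p = 0.126). LTA had 1, 1 and 4 reads.

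Among 6 tested other receptors 2 rose and 1 fell, with a median log2 change of 0.24. TNFRSF21, or DR6, a death domain receptor, had the largest change on log2(RPKM + 1) of the superfamily genes tested. As a ratio of means, TNFSF15 rose more, 11.8-fold against 6.85-fold for TNFRSF21. TNFRSF21 was at 16.4 and 14.4 RPKM in the controls and 115 and 95.5 RPKM after induction (log2 change 2.70 ± 0.24, SE; limma adjusted p = 2.05e-05). TNFRSF10D, a decoy receptor for TRAIL with a truncated death domain, went from 4.23 and 4.65 RPKM to 14.2 RPKM in each induced library (log2 change 1.49 ± 0.21, SE; limma adjusted p = 0.000357). The ratio of TNFRSF10D to TNFRSF10B was 0.245 and 0.292 in the controls and stood at 0.485 and 0.515 in the induced libraries. The TRAIL receptor genes TNFRSF10B, TNFRSF10C, TNFRSF10D and TNFRSF10A are neighbours on chromosome 8 and related in sequence, and the handling of reads shared between them is not stated in the labels. TNFRSF10C, the other membrane decoy, had 11, 12, 9 and 4 reads, and the soluble decoy TNFRSF11B was listed at 0 in the 4 libraries, which allows up to 0.0562 to 0.0677 RPKM for its GENCODE 29 length.

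TNFRSF14 encodes HVEM, a receptor of LIGHT, and was the most abundant superfamily gene of both controls. It fell from 75.03 and 92.3 RPKM to 24.7 and 21.9 RPKM (log2 change -1.80 ± 0.24, SE; limma adjusted p = 0.000236). The ratio of TNFSF14 to TNFRSF14 was 0.0385 and 0.0504 in the controls and 0.631 and 0.719 after induction, and the receptor remained above the ligand in both induced libraries. LTBR, the lymphotoxin beta receptor, CD27 and RELT did not pass (limma adjusted p = 0.608, 0.985 and 0.134). The RELT difference did pass under 3 of the 4 scaling alternatives, upper quartile scaling aside (limma adjusted p = 0.0323 to 0.0411). Of the genes under the level for testing, TNFRSF11A, the receptor RANK, was at 0.213 and 0.163 RPKM in the controls and 1.29 and 1.02 RPKM after induction (36, 23, 219 and 147 reads). CD40 had 0 and 0 reads in the controls and 19 and 5 reads after induction. Other receptors went the opposite way at low depth: TNFRSF19 had 11 and 8 reads in the controls and 1 and 0 reads after induction, and TNFRSF8, or CD30, had 12, 11, 5 and 3 reads. These 4 genes were picked out after their values were seen, and none of them was tested.

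**Figure D3:**
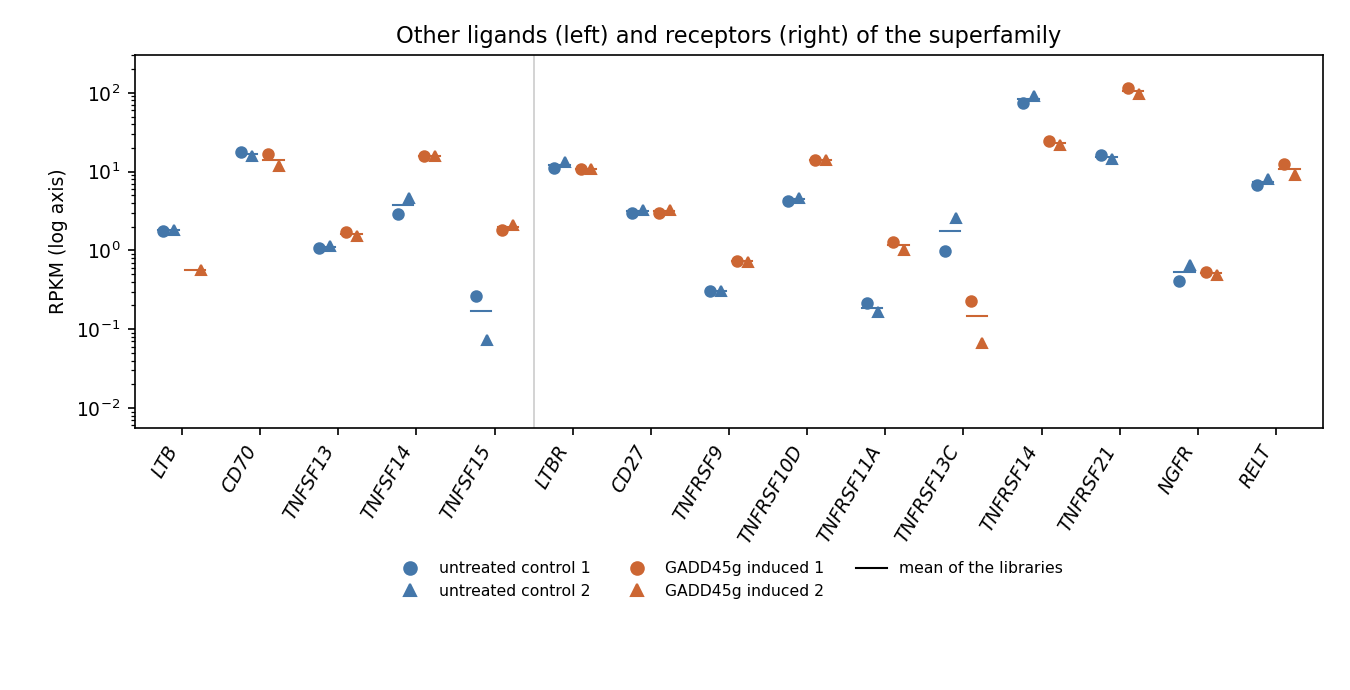
RPKM (log axis) by library of the other ligands (left) and receptors (right) that reached 0.5 RPKM in at least 1 library; circles are replicate 1, triangles replicate 2 and short lines group means. TNFRSF21, TNFRSF10D, TNFSF14 and TNFSF15 lie higher in both induced libraries, TNFRSF14 and TNFRSF13C lower, while CD27 and LTBR lie at like levels in all libraries.

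Counts in the lists below stand against the 12.2% of all tested genes called higher and 26.7% called lower. Downstream of the receptors, 5 of 15 tested adaptor and TRAF genes rose and 1 fell (median log2 change 0.24). TRAF1, an adaptor that binds TNFR2 and 4-1BB and is itself a target of NF-kB, went from 1.38 and 1.83 RPKM without induction to 23.2 and 26.7 RPKM (15.6-fold; log2 change 3.32 ± 0.22, SE; limma adjusted p = 3.15e-06). TANK, a TRAF-binding regulator, TRAF3IP2 and TRAF4 rose 2.26-fold, 2.18-fold and 2.31-fold. Their calls were lost without at least 1 library: TANK without untreated control 2 or GADD45g induced 2 (largest limma adjusted p = 0.0576), and TRAF3IP2 and TRAF4 without GADD45g induced 1 (0.0531 and 0.0985). TRADD, the adaptor that TNFR1 recruits, was at 3.98 and 4.12 RPKM in the controls and 11.4 and 5.68 RPKM after induction, a 2.10-fold rise with a wide spread between the induced libraries (log2 change 0.85 ± 0.28, SE; limma adjusted p = 0.0358). That call was lost without either control or without GADD45g induced 1, where the log2 change was 0.40 (largest limma adjusted p = 0.386). FAF1, a FAS-associated factor, fell 1.88-fold (limma adjusted p = 0.0159). It was lost without untreated control 2, GADD45g induced 1 or GADD45g induced 2 and under 3 of the 4 scaling alternatives (limma adjusted p = 0.0616 to 0.123). FADD, RIPK1 and TRAF2 did not pass, at log2 changes of -0.21, -0.18 and -0.33.

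In the list of the death-inducing complex 3 of 9 tested genes rose and 0 fell (median 0.43). CASP10, an initiator caspase, and XIAP, an inhibitor of caspases, rose 2.10-fold and 1.75-fold. CASP10 was lost without untreated control 1 or GADD45g induced 2, and XIAP without untreated control 2 or either induced library (largest limma adjusted p = 0.201 and 0.177). The initiator CASP8 and its regulator CFLAR did not pass (limma adjusted p = 0.563 and 0.13), with CASP8 at 4.58 and 4.70 RPKM in the controls and 4.73 and 6.07 RPKM after induction.

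Genes of ubiquitin editing at the TNF receptor complex included 5 of 15 tested that rose and 0 that fell (median 0.28). Several of these restrain NF-kB. TNIP1, an adaptor of the A20 enzyme, went from 10.8 and 13.3 RPKM to 26.2 and 24.2 RPKM (log2 change 1.01 ± 0.23, SE; limma adjusted p = 0.0051). TNFAIP3, which encodes A20, was at 19.6 and 22.7 RPKM in the controls and 39.2 and 43.5 RPKM after induction (limma adjusted p = 0.00845), and was lost without untreated control 1 (0.0505) or GADD45g induced 2 (0.0636). CYLD, a deubiquitinase, and TNIP2 rose 1.81-fold and 1.85-fold, each lost in 3 of 4 omissions of 1 library: CYLD without untreated control 2, GADD45g induced 1 or GADD45g induced 2, and TNIP2 without untreated control 1, untreated control 2 or GADD45g induced 1. TAB2, an adaptor of the kinase TAK1, rose 1.76-fold (limma adjusted p = 0.0398) and was lost without either control or without GADD45g induced 2 (largest adjusted p = 0.307). The ligases BIRC2 and BIRC3 did not pass (limma adjusted p = 0.523 and 0.289).

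In the shedding list 2 of 7 tested genes rose and 0 fell (median 0.48). RHBDF2, or iRhom2, which carries the TNF-cleaving protease ADAM17 to the cell surface, rose 2.25-fold, and FRMD8, which stabilises that complex, rose 1.92-fold. Both calls were lost without untreated control 1 or GADD45g induced 1 (largest limma adjusted p = 0.0642 for RHBDF2 and 0.154 for FRMD8). ADAM17 itself was at 24.8 and 21.6 RPKM in the controls and 32.2 and 32.9 RPKM after induction, which did not pass (limma adjusted p = 0.121).

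In the list of TNF-induced protein genes and related names, 2 of 7 tested rose and 1, TNFAIP8L2, fell (median -0.27). The list was wider than genes named for induction by TNF, since TNFAIP8L1, TNFAIP8L2 and LITAF were among those tested. TNFAIP6, which encodes the secreted hyaluronan-binding protein TSG-6, went from 4.86 and 3.68 RPKM to 34.4 and 39.8 RPKM (log2 change 2.86 ± 0.23, SE; limma adjusted p = 1.21e-05). TNFAIP1 rose 1.98-fold and TNFAIP8L2, or TIPE2, fell 2.13-fold. These calls were lost without GADD45g induced 1 (TNFAIP1, limma adjusted p = 0.0563) and without GADD45g induced 2 (TNFAIP8L2, 0.0503).

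Of 9 tested regulators of AU-rich mRNA such as that of TNF, 2 rose and 3 fell (median -0.43). The decay factor ZFP36, or tristetraprolin, went from 10.99 and 18.1 RPKM to 59.6 and 63.2 RPKM (log2 change 2.04 ± 0.27, SE; limma adjusted p = 0.000211). Its relative ZFP36L1 rose from 2.10 and 1.96 RPKM to 25.4 and 23.4 RPKM (limma adjusted p = 4.2e-06), while ZFP36L2 fell from 194 and 151 RPKM to 43.6 and 41.6 RPKM (limma adjusted p = 0.000167). HNRNPD, or AUF1, fell 1.96-fold. That call was lost after TMM scaling (limma adjusted p = 0.0556) and without untreated control 1, GADD45g induced 1 or GADD45g induced 2 (largest adjusted p = 0.0728). KHSRP, another decay factor, fell 1.70-fold (limma adjusted p = 0.0325), and its call was lost under the 4 scaling alternatives and without either control or GADD45g induced 2 (adjusted p = 0.0604 to 0.246).

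**Figure D4:**
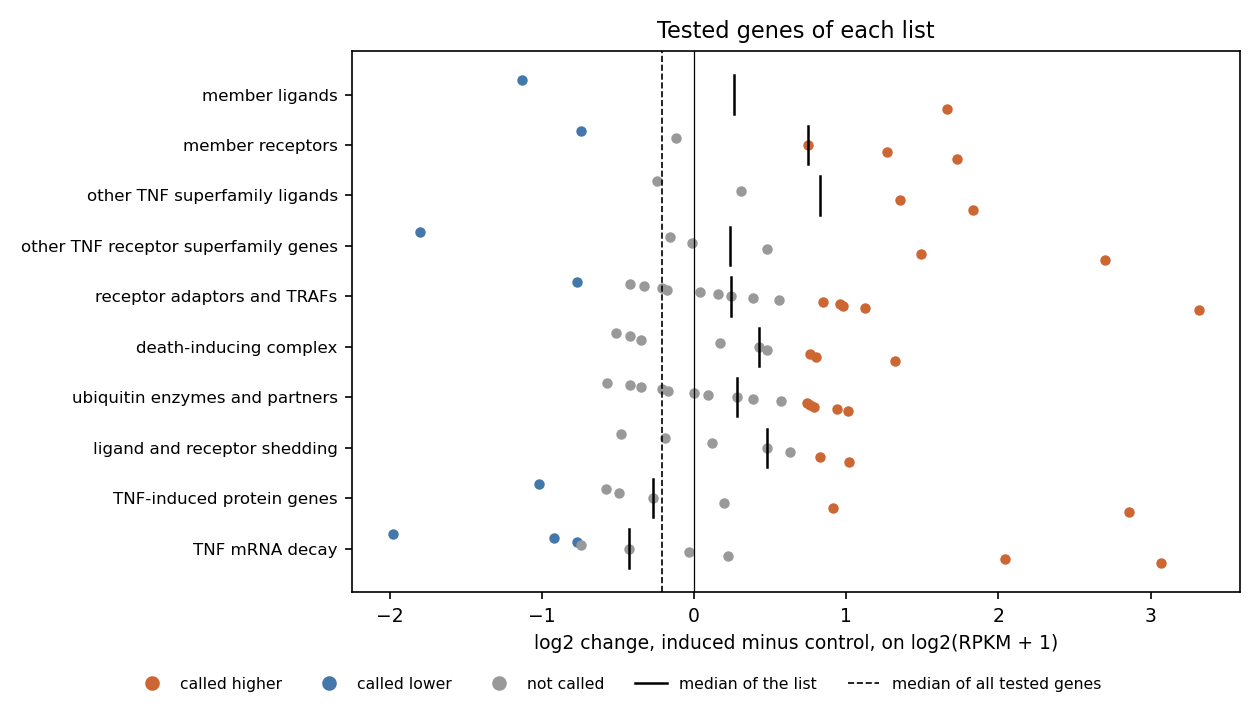
log2 change (induced minus control, on log2(RPKM + 1)) of each tested gene in the 10 lists, orange where called higher, blue where called lower and grey where not called; black bars are list medians and the dashed line is the median of all tested genes (-0.21). TRAF1 (3.32), ZFP36L1 (3.07), TNFAIP6 (2.86) and TNFRSF21 (2.70) lie farthest to the right and ZFP36L2 (-1.98) farthest to the left.

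TRADD, FAF1, TAB2 and KHSRP were named after their values were seen. These lists were drawn up with results of these data known. Over the 8 lists beside the members, 23 of 72 tested genes rose and 6 fell, with a median log2 change of 0.21, beside 12.2% and 26.7% of all tested genes. Without GADD45g induced 1 the counts were 14 and 4, and without GADD45g induced 2 they were 17 and 2.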

How the data were processed

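RNA of 4 MOLM-13 libraries was sequenced, and the deposited values are RPKM per Ensembl gene ID, per the file headers. TopHat, Cuffnorm, Cuffdiff and the build hg19 appear, without versions or roles, in the submitters' processing notes. No label states RNA selection, strand or read length. Groups and replicates came from the titles, and p-values measure only the spread between these libraries. IDs were paired with symbols through a table of gene names (51996 of 57820), and rows of 1 symbol were summed.

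Genes in all 4 files with a mean of at least 1 RPKM were tested with limma 3.58.1 in R 4.3.3 (lmFit, eBayes with trend) on log2(RPKM + 1), two-sided, with Benjamini-Hochberg adjustment over 10771 genes and a threshold of 0.05. No scaling was added. With 2 residual degrees of freedom, the prior degrees of freedom were 8.72. An exact permutation test of 2 against 2 libraries cannot go below p = 0.333, so none is given. IKBKG was not found under its symbol; 105 of 106 other listed genes were.

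Reads were recovered from the authors' RPKM values as RPKM times length times depth. The length of a gene was the one nearest to its GENCODE 29 length that made its reads whole in every library. For FAS it was 3562 bases, against 4253 in GENCODE 29. Among genes with the same ID version in GENCODE 29, 100.0% of values of up to 20 reads were whole within 0.01 reads at the GENCODE 29 length. A length was found for 98.4% of tested IDs, a share that is no check of the reads, since the length was chosen to make them whole. Poisson intervals of 95% and limits for 0 reads (3 reads) cover counting error only. The fit was tested on simulated data.

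Named genes are the members, their known partners, GADD45G, and up to 4 called genes of each list by adjusted p. Core genes that did not pass are named for contrast. A result under this rule is not reported here. Members, lists and tests were chosen with earlier results of these data known. Alternatives were other pseudocounts, filters, scalings, variance models, a replicate block, 3-library fits, voom on recovered reads and each library left out. The replicate 2 libraries alone were added after seeing the data.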

Additional observations from a re-analysis of the deposited data

How the results depend on the processing

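With 2 libraries per group, single calls rest on few values. TNFSF9, TNFRSF1B and TNFRSF12A kept direction and call under all 17 alternatives with a test, TNFRSF10B under 13 and TNFSF13B under 12, each of 17. FAS did so under 7 of 16, since a filter at 5 RPKM removed it. The count of members called higher was 4 with all libraries, 5 with missing values kept (TNF added, from 1 induced library) and 3 with any 1 library left out. Members called lower numbered 2, but 0 with no filter, after TMM scaling and with missing values kept. They numbered 1 with a filter at 5 RPKM, after upper quartile scaling, after quantile normalization and with the median change shifted to 0, and 0 to 2 with 1 library left out.

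Scaling turned the sign of genes that did not pass. TNFRSF1A changed by 0.05 after upper quartile scaling, 0.14 after TMM scaling, 0.05 after quantile normalization and 0.09 with the median change shifted to 0, all on the log2 scale. The same settings gave LTBR 0.01, 0.09, 0.01 and 0.06 and CD27 0.13, 0.20, 0.28 and 0.21. TMM scaling gave CD70 0.01, and with 1 library left out CD27 ranged from -0.06 to 0.04. TMM scaling moved the median change of all genes by 0.23, and the split of calls from 12.2% higher and 26.7% lower to 18.3% and 18.8%.

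Other listed genes called higher numbered 23, or 27 to 31 under the 4 scaling alternatives, 15 with no filter and 14 to 18 with 1 library left out. Those called lower numbered 6, or 3 with no filter, 3 after TMM scaling and 2 to 6 with 1 library left out. All tested genes called numbered 4185, or 2462 with no filter and 2597 to 3582 with 1 library left out. Of 29 called genes of the other lists, described or taken by the naming rule outside the members, 12 kept their call in all 4 omissions.

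The titles give the groups shared replicate suffixes but do not say what they mark. The deviations of same-numbered libraries correlated across genes (r = 0.349; genes are not independent replicates). With a replicate block, members called numbered 4 higher and 2 lower, other listed genes 24 and 9, and all tested genes 4987. In the replicate 2 libraries alone, the 6 members called kept their direction, at log2 differences of 1.73 for TNFSF9, 0.93 for TNFRSF1B, 1.62 for TNFRSF12A, 0.76 for TNFRSF10B, -0.72 for TNFSF13B and -0.51 for FAS. TNFSF10, TNFRSF10A and LTA are limited by depth.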
